A study of Rattus norvegicus with 6 samples.

Results

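Fatty acids are built in the cytosol from acetyl-CoA, and the fat droplet then needs glycerol 3-phosphate to hold them, so the genes described here cover both supplies. The list holds 10 genes: Thrsp, Fasn, Acaca, Acly, Srebf1, Elovl6, Me1, Pc, Pck1 and Gpd1. Each was read from the probe set that carries its symbol alone, and 9 of the 10 have 1 such probe set. The only probe set of Srebf1 also carries Pemt, so Srebf1 is given no value here. The 9 measured genes are among the 11237 genes whose log2 signal exceeded 5 on 1 array or more. Thrsp, Pck1 and Pc had been picked because they were higher after rapid pacing, so their values are described and not tested. The other 6 measured genes were not picked for a difference.

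The arrays come from left atria of adult male Sprague-Dawley rats weighing 250 to 320 g, with 3 rats under rapid atrial pacing (RAP, a 70 ms cycle) and 3 under control pacing (Con, 140 ms), each for 48 hours and with 1 array per rat. All rats, the controls included, carried an electrode on the right atrium and drank atenolol, a beta blocker, and the ventricles beat at the same rate in both groups. In the study a RAP rat and its Con partner were operated on and paced side by side. Rats with the same replicate number were taken here as partners and are called pairs 1 to 3. This match is an assumption, and a check of it, given with the processing below, did not bear it out. All values within pairs depend on it. The rats were healthy animals studied after a short spell of pacing, and each array holds RNA of whole atrial tissue.

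Lipogenesis turns citrate from the mitochondria back into acetyl-CoA, carboxylates it to malonyl-CoA and joins these units into palmitate with NADPH as the reductant. In liver and fat the program is switched on by SREBP-1c, ChREBP and thyroid hormone. Glyceroneogenesis makes glycerol 3-phosphate from pyruvate by way of oxaloacetate and is best known from adipose tissue, where it lets fatty acids be esterified again. The normal heart oxidizes fatty acids and makes few of them, while fat lies on the surface of the atria.

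Of the 10 genes, 5 had a promoter in the RefSeq table of assembly GRCr8 (250 bases before to 50 bases after the start), and 4 are shown, because Thrsp and Pck1 ran together over the arrays with or without RAP 3, while Acly (r = 0.33 with Thrsp, and -0.70 without RAP 3) and Me1 (0.72 and -0.08) followed them less. Capitals mark matches on either strand to CCAAT (the CCAAT box), GGGCGG (the GC box), ACGTCA (a half-site of the cAMP response element) and AGGTCA (a half-site of nuclear receptors).
Thrsp: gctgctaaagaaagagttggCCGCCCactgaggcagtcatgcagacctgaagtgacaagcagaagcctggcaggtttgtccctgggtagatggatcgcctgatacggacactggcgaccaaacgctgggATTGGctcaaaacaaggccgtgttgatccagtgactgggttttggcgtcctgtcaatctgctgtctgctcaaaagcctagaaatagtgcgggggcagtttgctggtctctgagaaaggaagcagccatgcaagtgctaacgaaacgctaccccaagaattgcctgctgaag
Pck1: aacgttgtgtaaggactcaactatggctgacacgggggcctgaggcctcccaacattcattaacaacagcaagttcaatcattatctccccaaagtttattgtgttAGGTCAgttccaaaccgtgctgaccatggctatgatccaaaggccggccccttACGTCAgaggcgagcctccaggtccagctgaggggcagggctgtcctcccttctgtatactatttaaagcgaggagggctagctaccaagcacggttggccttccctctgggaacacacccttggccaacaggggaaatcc
Acly: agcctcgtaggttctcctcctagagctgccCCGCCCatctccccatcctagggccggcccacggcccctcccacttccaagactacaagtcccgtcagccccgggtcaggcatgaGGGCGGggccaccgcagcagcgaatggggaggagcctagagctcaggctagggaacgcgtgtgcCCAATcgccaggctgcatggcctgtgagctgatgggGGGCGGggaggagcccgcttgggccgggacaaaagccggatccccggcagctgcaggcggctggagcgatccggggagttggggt
Me1: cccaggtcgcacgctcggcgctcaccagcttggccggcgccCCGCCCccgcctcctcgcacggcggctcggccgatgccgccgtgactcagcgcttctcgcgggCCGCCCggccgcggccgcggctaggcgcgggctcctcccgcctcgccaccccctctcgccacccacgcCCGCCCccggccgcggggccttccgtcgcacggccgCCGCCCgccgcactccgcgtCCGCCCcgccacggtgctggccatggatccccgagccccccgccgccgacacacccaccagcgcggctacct
They lie at chr1:161138915-161139214 (minus strand), chr3:182348322-182348621 (plus strand), chr10:85963582-85963881 (minus strand) and chr8:96540195-96540494 (minus strand). The Thrsp promoter (53.7% G and C) holds a CCAAT box starting at -121 and a GC box at -230. The Pck1 promoter (53.3%) holds the cAMP half-site at -91 and the nuclear receptor half-site at -144, and it is the only one of the 6 member promoters (Srebf1 has 2) with either. Acly (69%) has 3 GC boxes and a CCAAT box, and Me1 (81.7%) has 5 GC boxes. Among all 33469 promoters of this length, 37.5% hold the CCAAT box, 33.1% the GC box, 7.94% the cAMP half-site and 16.2% the nuclear receptor half-site. The E-box CACGTG (6.42% of all promoters) and the TATA box TATAAA (14.2%) were also searched on both strands and matched 0 of the 6. These matches describe letters in the window and were not tested for use by any factor.

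The median log2 signal was 5.82 to 5.85 on the 6 arrays, and 62.6 to 63.8% of probe sets exceeded 5. Atrial identity was plain, with the atrial light chain Myl7 between 13.61 and 13.76 and the hormone Nppa between 13.40 and 13.59 on every array. Some arrays stood apart in the RNA of other cells, measured as how far a list's markers lay from their own means over the arrays (log2, averaged over the list). Con 3 was high in erythroid markers (1.86, with -0.61 to -0.14 in RAP and -0.79 and -0.16 in the other Con arrays) and in ventricular markers (1.08, with Myl2 at 8.60 and no more than 4.89 elsewhere). Con 2 was high in macrophage (1.18) and fibroblast (0.83) markers. RAP 3 was the highest array for adipocyte markers, at 1.10.

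All 9 measured genes, the 6 not picked for a rise among them, were highest in RAP 3. That array was the highest of the 6 for 19.6% of all genes tested. They fell into a pair of patterns. Thrsp, Pck1, Pc and Gpd1 were higher with RAP in each of the 3 pairs. Thrsp, Pck1 and Pc had been picked for their rise, so their signs are not set against a share of all genes. Of the 6 not picked, 1, Gpd1, was higher in each pair (14.3% of all genes) and 0 were lower in each pair (14.1%). The synthetic enzymes Fasn, Acaca, Acly, Elovl6 and Me1 were not higher in each pair. Of these, 3 (Fasn, Acly and Elovl6) were lower with RAP in pairs 1 and 2 and higher in pair 3, as 21.7% of all genes were.

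**Figure D1:**
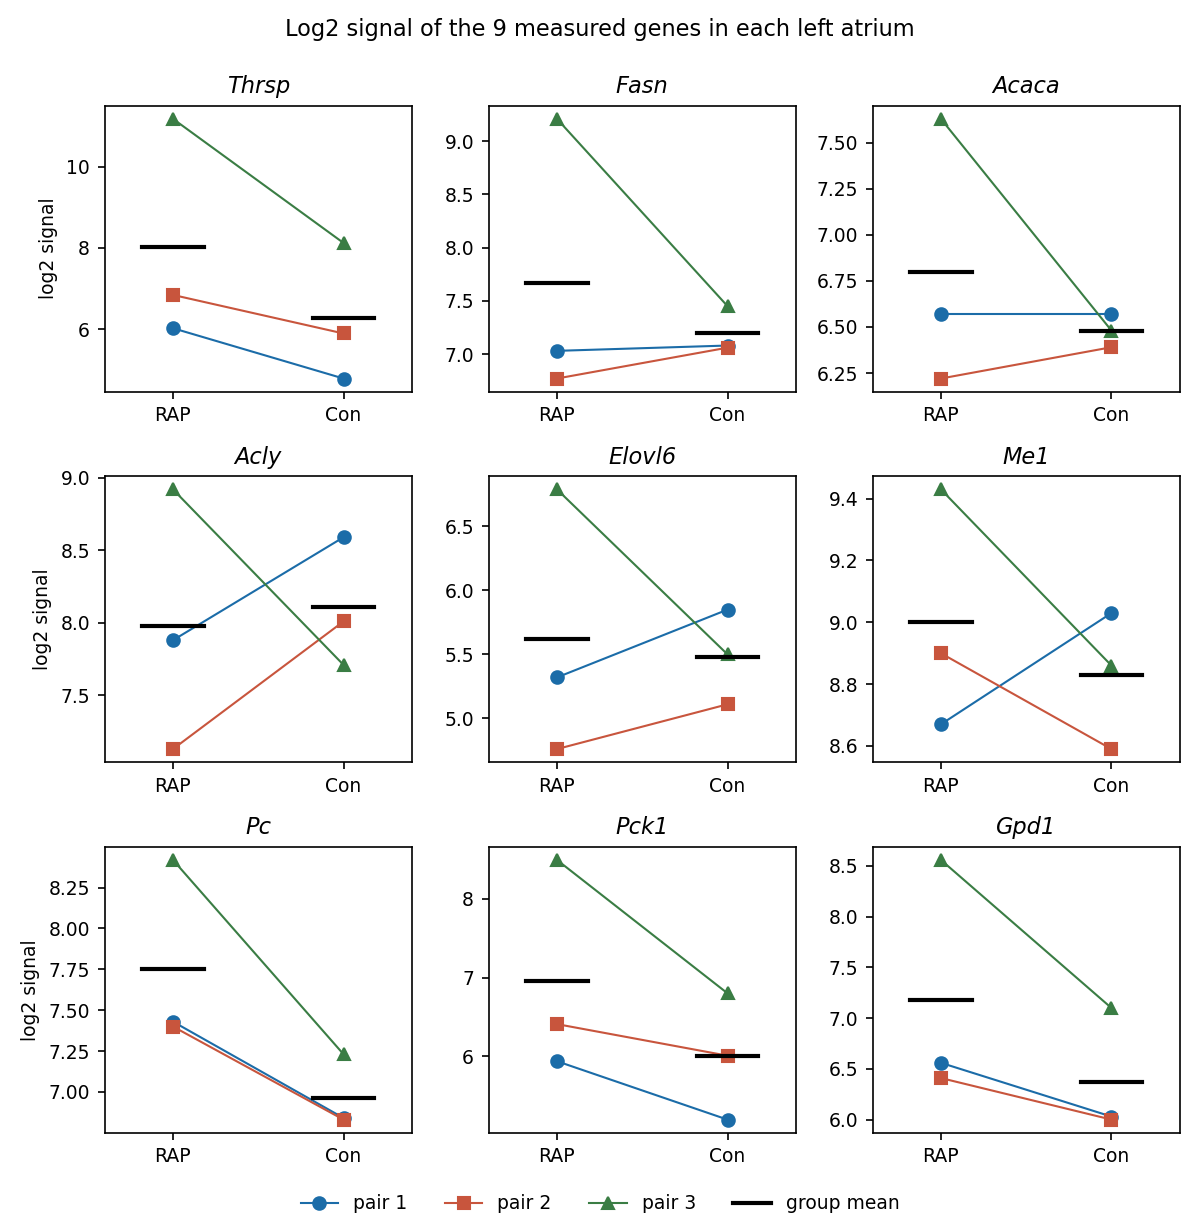
Log2 signal of the 9 measured genes on each array, with RAP on the left and control pacing (Con) on the right of each panel, a line joining the rats of a pair, black bars at the group means and a scale of its own per panel. RAP 3 is the highest array in all 9 panels, and the lines of Thrsp, Pc, Pck1 and Gpd1 all run down towards Con.

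Thrsp encodes Spot 14, a small nuclear and cytosolic protein that thyroid hormone and carbohydrate induce in lipogenic tissues and that promotes fatty acid synthesis. Its log2 signal was 6.02, 6.84 and 11.18 in RAP 1, 2 and 3, against 4.78, 5.89 and 8.12 in Con 1, 2 and 3. The groups overlapped, since Con 3 lay above RAP 1 and RAP 2, and Con 1 lay under the signal level of 5. Within pairs RAP exceeded Con by 1.23, 0.96 and 3.06 on the log2 scale, a mean of 1.75 or 3.36-fold. The spread was wide in both groups (SD 2.78 in RAP and 1.70 in Con, n = 3 each), and the range among the Con rats, 3.34, was larger than the mean difference. Without pair 3 the difference was 1.09. In unpaired fits it was 0.17 without RAP 3, 2.75 without RAP 1, 1.01 without Con 1 and 2.68 without Con 3.

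Pck1, the cytosolic phosphoenolpyruvate carboxykinase, draws oxaloacetate towards glycerol 3-phosphate in fat and towards glucose in liver and kidney. It stood at 5.94, 6.41 and 8.49 in RAP 1, 2 and 3, and at 5.20, 6.01 and 6.80 in Con 1, 2 and 3. The order of the arrays was close to that of Thrsp, and Con 3 again exceeded RAP 1 and RAP 2. The pair differences were 0.74, 0.41 and 1.69, with a mean of 0.95 (1.93-fold). The mean was 0.57 without pair 3 and, unpaired, 0.18 without RAP 3, 0.55 without Con 1 and 1.45 without RAP 1.

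Pc, the mitochondrial pyruvate carboxylase that makes the oxaloacetate for both routes and refills the citric acid cycle, was the steadiest of the 4. RAP 1, 2 and 3 had 7.43, 7.40 and 8.42, against 6.84, 6.83 and 7.23 in Con 1, 2 and 3. Here the groups did not overlap, which was true in this direction of 7.57% of all genes and in the other direction of 7.85%. Pc had been picked for its rise, so this is a description only. RAP exceeded Con by 0.59, 0.57 and 1.20 in the pairs, a mean of 0.79 (1.72-fold). Leaving out any pair gave 0.58 to 0.89, and leaving out RAP 3 in an unpaired fit gave 0.45.

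Gpd1, the cytosolic glycerol 3-phosphate dehydrogenase that reduces dihydroxyacetone phosphate, closes the route from glucose to the glycerol backbone. Its log2 signals were 6.56, 6.41 and 8.56 in RAP 1, 2 and 3, and 6.03, 6.0 and 7.10 in Con 1, 2 and 3. RAP 1 and RAP 2 lay above their own partners but under Con 3. Gpd1 rose by 0.81 (SE 0.25, 95% interval 0.16 to 1.46, 1.75-fold) by limma with the pair as a block, at an unadjusted p of 0.0247. A gene is said to rise or fall here when it passed both thresholds of the study, a fold above 1.3 in either direction and p below 0.05 before adjustment. Of the 11237 genes 6.39% passed, 2.94% higher and 3.45% lower with RAP. The adjusted p of Gpd1 was 0.699, and 0 of the 11237 genes had an adjusted p under 0.05 by limma, where 774 (6.89%) had an unadjusted p under 0.05. By the methods' paired t-test these numbers were 0 and 637 (5.67%). The rise of Gpd1 was kept without pair 1, 2 or 3 (0.94, 1.00 and 0.48), where 164, 378 and 2488 of all genes passed. It was not called without the pair as a block (limma unadjusted p of 0.227, where 7.74% of all genes passed) or by the methods' paired t-test (2.08% passed), and an unpaired fit without RAP 3 gave 0.11.

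**Figure D2:**
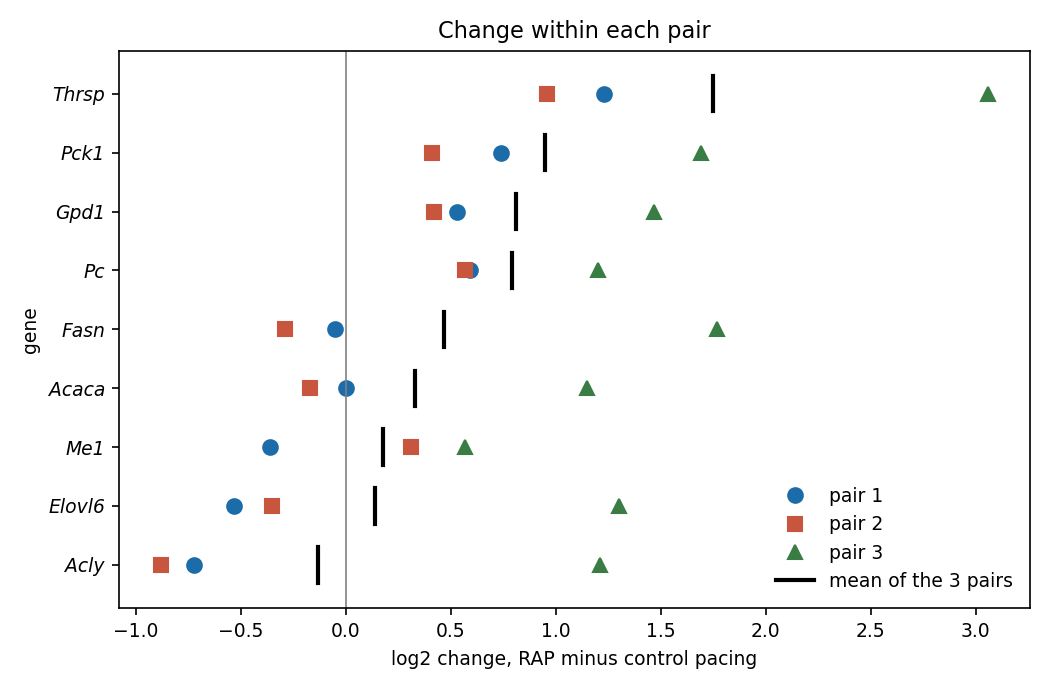
Log2 change (RAP minus control pacing) of the 9 measured genes within pairs 1, 2 and 3, with a black bar at the mean. Thrsp, Pck1, Gpd1 and Pc lie to the right of 0 in every pair, and pair 3 has the largest value of each gene.

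The enzymes of the synthetic route did not pass the thresholds, and none of the 5 was higher with RAP in every pair. Fasn, the fatty acid synthase that assembles palmitate, had 7.03, 6.77 and 9.21 in RAP 1, 2 and 3, against 7.08, 7.06 and 7.45 in Con 1, 2 and 3. Only RAP 3 stood above the Con rats, which lay within 0.39 of each other. The pair differences were -0.05, -0.29 and 1.77, and the mean change was 0.47 (SE 0.44, 95% interval -0.67 to 1.62, adjusted p = 0.808 by limma). Without pair 3 it was -0.17.

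Acaca, acetyl-CoA carboxylase 1, makes the malonyl-CoA that Fasn uses. It stood at 6.57, 6.22 and 7.63 in RAP 1, 2 and 3, and at 6.57, 6.39 and 6.48 in Con 1, 2 and 3. The Con rats lay within 0.18 of each other, RAP 1 was level with its partner, and only RAP 3 stood above all Con rats. The mean change was 0.33 (SE 0.30, 95% interval -0.45 to 1.10, limma adjusted p = 0.803), and without pair 3 it was -0.09.

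Acly, ATP citrate lyase, splits exported citrate into acetyl-CoA and oxaloacetate. Its signals were 7.88, 7.13 and 8.92 in RAP 1, 2 and 3, against 8.59, 8.01 and 7.71 in Con 1, 2 and 3. RAP was lower in pairs 1 and 2 (-0.72 and -0.88) and higher in pair 3 (1.21), and the mean change was -0.13 (SE 0.45, 95% interval -1.31 to 1.05, limma adjusted p = 0.948). Without pair 3 Acly fell by 0.80 at a limma unadjusted p of 0.00509, past the thresholds. In that fit 2488 of the 11237 genes passed.

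Elovl6, the elongase that takes palmitate to stearate, was dim, with 5.32, 4.76 and 6.79 in RAP 1, 2 and 3 and 5.85, 5.11 and 5.50 in Con 1, 2 and 3. RAP 2 lay under the signal level of 5. The pairs gave -0.53, -0.35 and 1.3, and the change was 0.14 (SE 0.40, 95% interval -0.90 to 1.18, limma adjusted p = 0.937). Without pair 3 it was -0.44 and past the thresholds (limma unadjusted p of 0.0391), so the direction rests on pair 3. In that fit 2488 of the 11237 genes passed.

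Me1, the cytosolic malic enzyme, supplies NADPH and had the narrowest range of the 5 synthetic enzymes among the RAP rats. It had 8.67, 8.90 and 9.43 in RAP 1, 2 and 3, against 9.03, 8.59 and 8.86 in Con 1, 2 and 3. The differences were -0.36, 0.31 and 0.57, and the mean was 0.18 (SE 0.22, 95% interval -0.40 to 0.75, limma adjusted p = 0.852). Without pair 3 it was -0.02.

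Across the 6 measured genes that had not been picked for a rise, 1 of 6 passed, against the background of 6.39%, and with so few genes that count is a description only. The mean change of the 5 synthetic enzymes was -0.33 in pair 1, -0.28 in pair 2 and 1.20 in pair 3. The mean of Thrsp, Pck1, Pc and Gpd1 was 0.77, 0.59 and 1.85 in the same pairs. A test of the difference between the gene groups was not made, since 3 of the 4 genes had been picked on this contrast. The same signs, negative in the first pairs and positive in pair 3 (21.7% of all genes), were shown by 15 of 17 macrophage, 8 of 9 mast cell and 8 of 10 fibroblast markers. The macrophage markers differed by -0.45, -1.88 and 0.63 in pairs 1, 2 and 3 on average, the mast cell markers by -0.98, -1.99 and 1.23 and the fibroblast markers by -0.58, -1.60 and 0.63. The arrays behind these signs differed. RAP 3 was the highest array for all 5 enzymes, but for 0 of 17 macrophage, 3 of 9 mast cell and 1 of 10 fibroblast markers (19.6% of all genes). The part of these cells in the values of the synthetic enzymes was not tested.

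Pck1 and Thrsp ran together over the 6 arrays, with a Pearson r of 0.994 (0.977 without RAP 3), and these correlations are descriptions over arrays that share the pair and the pacing groups. The 36 pairs among the 9 genes had r from 0.31 to 0.99 with all 6 arrays. Without RAP 3 the range was -0.80 to 0.98, and Pck1 against Acly gave the lowest value (0.31 with RAP 3). Acly, Acaca and Elovl6 kept to each other, with r of 0.79 to 0.87 without RAP 3. Of all 11236 other genes, the one most like Pck1 was Pparg (r = 0.999, rho = 1.00, and 0.996 without RAP 3), the nuclear receptor that drives adipocyte differentiation. It was followed by Acp1, Tcea1, Thrsp and Farsb (r of 0.994 to 0.997). Most like Thrsp were Pck1, Tcea1, Eef1e1, Pparg and Acp1 (0.990 to 0.994). Fasn was nearest to Snrpb, Taf1a, Sars1, Etf1 and Agpat2 (0.989 to 0.996), and Pc to Srp54a, Mc2r, Dctn5, Hs3st2 and Ankrd2 (0.986 to 0.993). With 6 points and so many genes, high values of r are easily reached.

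Markers of fat cells moved with Thrsp, Pck1 and Gpd1, and less with Pc. Of 9 defining adipocyte markers outside the list 8 have a probe set of their own and 0 of these lay under 5 on all arrays. Their mean log2 deviation was -0.37, -0.16 and 1.10 in RAP 1, 2 and 3, and -0.71, -0.31 and 0.45 in Con 1, 2 and 3. RAP 3 and Con 3 were the highest and Con 1 the lowest, as for Thrsp. Of the 8, 3 rose (2.94% of all genes did), 0 fell, and 6 were higher with RAP in all 3 pairs (14.3% of all genes). Adrb3, among these 6, exceeded 5 only in RAP 3 (5.87) and so entered the test through that array alone. Adipoq, the adipocyte hormone adiponectin, had 6.18, 6.64 and 9.36 in RAP 1, 2 and 3, against 4.58, 5.91 and 8.41 in Con 1, 2 and 3, a rise of 1.09 (SE 0.21, limma adjusted p = 0.699). It was kept with any pair left out (0.84 to 1.28) but not without the pair as a block or by the methods' paired t-test. In unpaired fits it was 0.11 without RAP 3, 0.23 without Con 1, 1.70 without RAP 1 and 2.15 without Con 3.

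Cidec, a protein of the fat droplet, rose by 0.58 and Retn, resistin, by 0.46, while Plin1 (0.36), Fabp4 (0.30), Adrb3 (0.51), Lep (0.00) and Cfd (-0.26) did not pass. Cidec was not called without pair 1 (0.63) or without the pair as a block, and in an unpaired fit without RAP 3 its value was -0.22. Retn was not called without pair 1 (0.40), without pair 2 (0.41) or without the block. Plin4 has no probe set of its own. In a wider list of 26 adipocyte genes, which also holds Thrsp, Pck1 and Gpd1, 23 were measured. Their mean deviation was -0.37 to 1.16 in RAP and -0.73 to 0.30 in Con. Aqp7, the glycerol channel of fat cells, rose by 0.91, while Agpat2 (0.19) and Cebpa (-0.09) did not pass. Without RAP 3 in an unpaired fit Aqp7 was at 0.26, and without Con 3 at 1.74. Ucp1, the uncoupler of brown fat, was at 4.51, 4.71 and 6.92 in RAP 1, 2 and 3, and at 4.16, 4.27 and 4.50 in Con 1, 2 and 3, so only RAP 3 exceeded 5. With the mean of the 8 markers, Thrsp had an r of 0.990 over the 6 arrays, Pck1 0.978 and Gpd1 0.952, and these were 0.984, 0.945 and 0.868 without RAP 3. Pc (0.837, and 0.413 without RAP 3), Fasn (0.873 and 0.576) and Acly (0.306 and -0.577) followed the markers less. Among the 11236 other genes ordered by r, Adipoq ranked 51 for Thrsp, 91 for Pck1 and 179 for Gpd1. Of the 8 markers, 4, 3 and 2 were among the 100 genes most like Thrsp, Pck1 and Gpd1, so many genes other than these markers were as close. In bulk tissue, more fat cells in a sample and more RNA per cell cannot be told apart, and the part of fat cells in the values above was not tested.

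**Figure D3:**
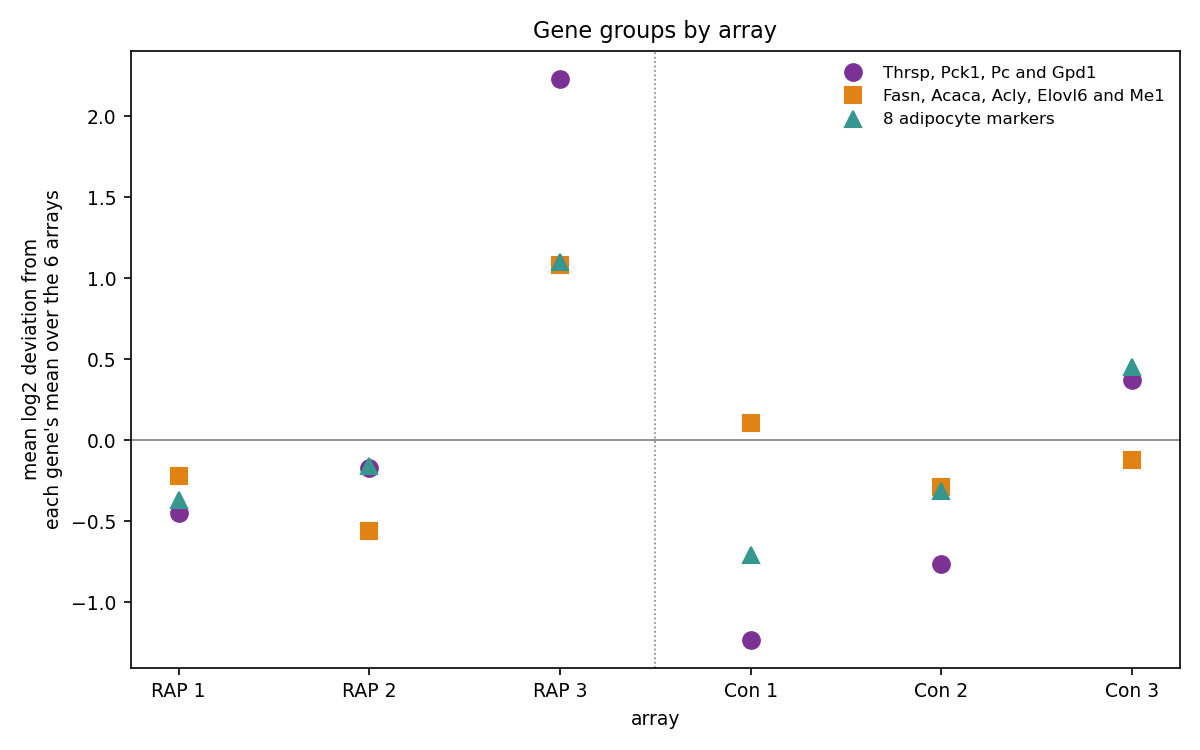
Mean log2 deviation from each gene's mean over the 6 arrays, for Thrsp, Pck1, Pc and Gpd1 (circles), for Fasn, Acaca, Acly, Elovl6 and Me1 (squares) and for 8 adipocyte markers (triangles), by array, with RAP on the left. All 3 groups are highest in RAP 3, and in Con 1, the lowest array of the circles (-1.23) and triangles (-0.71), the squares stand at 0.11.

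Other genes of these pathways were read from 7 lists with 136 genes besides the 10, of which 117 have a probe set of their own and 107 passed the signal filter. Of the 107, 10 rose and 4 fell (13.1%, against 6.39% of all genes), with a median change of 0.04 (-0.01 over all genes). The count was 2 without pair 1, 3 without pair 2 and 39 without pair 3, and of the 14 genes only Acss2 passed whichever pair was left out. In the same fits 164, 378 and 2488 of all genes passed.

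Of 16 other genes of fatty acid synthesis and elongation only Acss2 passed (6.25%, against 6.39% of all genes). Acss2, the cytosolic acetyl-CoA synthetase that makes acetyl-CoA from acetate, had 8.88, 9.16 and 9.06 in RAP 1, 2 and 3, against 8.30, 8.16 and 8.37 in Con 1, 2 and 3. The groups did not overlap, and the pair differences of 0.58, 1.00 and 0.69 were alike. The rise was 0.76 (SE 0.15, 1.69-fold, limma adjusted p = 0.699). It passed the thresholds in each of the alternatives tried, with changes of 0.63 to 0.84. The partners of the synthetic enzymes did not pass: Scd, a desaturase (0.50, with 6.70, 6.62 and 9.64 in RAP 1, 2 and 3, against 7.49, 5.72 and 8.26 in Con 1, 2 and 3), Scd2 (-0.25), Acacb, the carboxylase of the mitochondrial surface (0.41), Elovl5 (-0.03) and the citrate carrier Slc25a1 (-0.37).

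Among 12 other genes of NADPH supply Me3, a mitochondrial malic enzyme, rose (0.73, SE 0.26, with 0.68, 1.37 and 0.15 in the pairs), and Me2 (-0.54) did not pass. Only Me3 passed, which is 8.33% of the 12, against 6.39% of all genes. The call of Me3 was lost without pair 1 (0.76) or pair 2 (0.42) and by the methods' paired t-test.

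In the list around Pc, Pck1 and Gpd1, 4 of 10 other genes rose (2.94% of all genes did) and 0 fell. They were Mdh1, the cytosolic malate dehydrogenase (0.57, SE 0.21), Got2, the mitochondrial aspartate aminotransferase (0.50, SE 0.18), Slc25a11, the oxoglutarate and malate carrier (0.51, SE 0.19), and Gk, the glycerol kinase, which makes glycerol 3-phosphate directly (0.38, SE 0.15). In pairs 1, 2 and 3 Mdh1 differed by 0.65, 0.98 and 0.09, and Got2 by 0.57, 0.79 and 0.12. Slc25a11 differed by 0.42, 0.94 and 0.17, and Gk by 0.25, 0.62 and 0.28. These 4 differed most in pair 2, while Pc, Pck1 and Gpd1 differed most in pair 3. None of these 4 passed without pair 1, without pair 2 or by the methods' paired t-test. The limma unadjusted p of Mdh1, Got2, Slc25a11 and Gk was 0.0433, 0.0423, 0.0477 and 0.0498, close under the threshold. With the stricter filter (above 6 in at least 3 arrays) 3 genes of the list passed, Gpd1 counted, against 5 in the main fit. Mdh2 (0.48) and Got1 (0.76), the partner enzymes in the other compartment, did not pass. Pck2, the mitochondrial form of Pck1 (-0.34), and Gpd2, the mitochondrial partner of Gpd1 (-0.01), did not pass. Gpd1l has no probe set of its own. Of the glucose-forming enzymes, Fbp1, Fbp2 and G6pc1 lay under a log2 signal of 5 on every array, while G6pc3 exceeded it on every array and did not pass (-0.21).

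Of 15 genes of glycerolipid synthesis only Agpat4 passed (6.67%, against 6.39% of all genes). Agpat4, an acyltransferase, rose (0.41, SE 0.13), a call lost without pair 1 (0.45) or pair 2 (0.36). Gpam, which acylates glycerol 3-phosphate (0.43), and Dgat2, which makes triglyceride (0.47), did not pass.

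Of 23 other regulators of lipogenesis 2 rose and 3 fell, against 2.94% and 3.45% of all genes, and 0 passed without pair 1 and 1, Pparg, without pair 2. By the methods' paired t-test 0 of the 23 passed higher and 2 lower, where 2.08% of all genes passed. Pparg stood at 5.90, 6.09 and 7.22 in RAP 1, 2 and 3, and at 5.46, 5.90 and 6.26 in Con 1, 2 and 3, a rise of 0.53 (SE 0.19). The rise of Pparg was not called without pair 1 (0.58), without pair 3 (0.31), without the pair as a block or by the methods' paired t-test. An unpaired fit without RAP 3 gave 0.12. Prkaa2, the kinase subunit of AMPK that inactivates acetyl-CoA carboxylase, rose by 0.72 (SE 0.27), with 0.00 in pair 3. Cebpb, a factor of early fat cell differentiation (-0.46), Rxra, the partner of PPAR and LXR receptors (-0.43), and the mediator subunit Med15 (-0.39) fell. Mlxipl, which encodes ChREBP (0.16), the LXR receptor Nr1h3 (-0.01), the SREBP anchor Insig1 (0.13) and Mid1ip1, the paralog of Thrsp (-0.02), did not pass.

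Of 22 regulators of Pck1 and Pc, 1 rose and 2 fell, against 2.94% and 3.45% of all genes. Pparg rose, while Cebpb and Foxo3, a forkhead factor restrained by insulin (-0.47, not called without pair 1 or pair 2), fell. The coactivator Ppargc1a (0.55, with 0.62, 1.57 and -0.54 in the pairs) did not pass. Thyroid hormone induces Thrsp, and of 15 other genes of its signalling and heart targets only Myh6 passed (6.67%, against 6.39% of all genes). Myh6, the fast myosin heavy chain, rose (0.46, SE 0.17), and it was not called with any pair left out. The receptors Thra (0.23) and Thrb (0.27) did not pass.

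**Figure D4:**
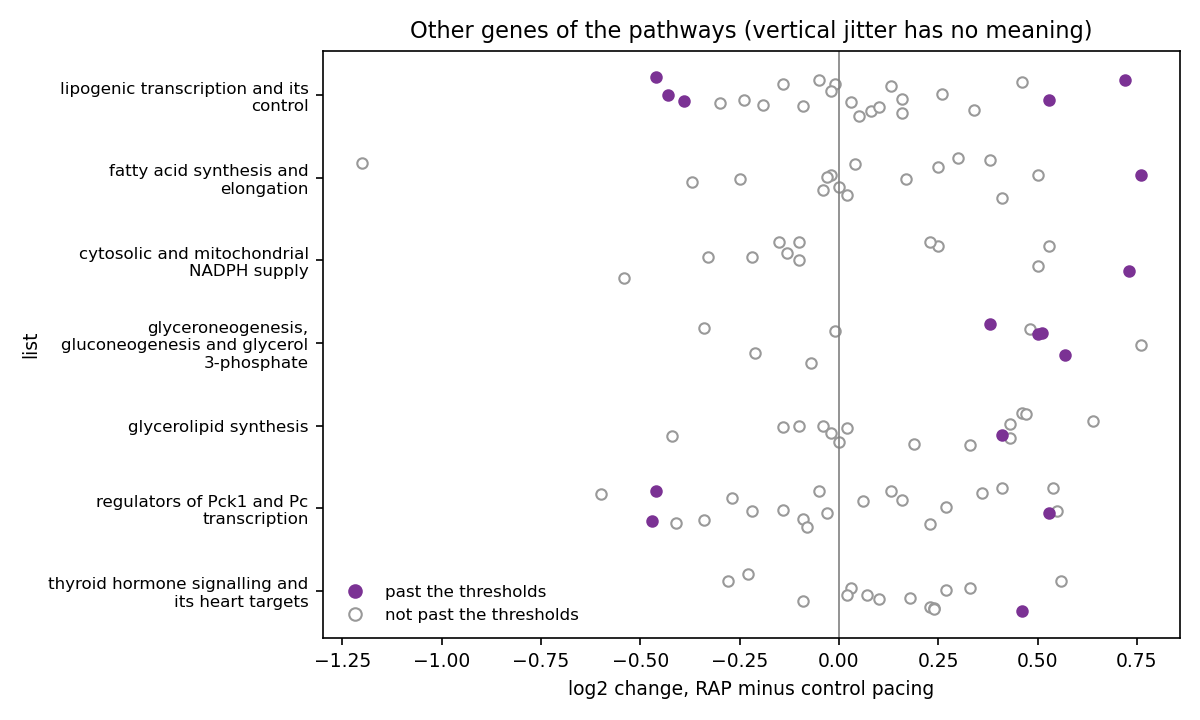
Log2 change (RAP minus control pacing) of the other measured genes of 7 pathway lists, 1 point per gene and list, filled where the gene passed the thresholds. The list around Pc, Pck1 and Gpd1 holds 4 filled points, all to the right of 0, and the list of fatty acid synthesis holds 1, Acss2 at 0.76.

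Markers of other cell types were read in the same way, as mean deviations. Macrophage markers lay at -0.70 to 0.17 in RAP and -0.47 to 1.18 in Con, and mast cell markers at -1.25 to 0.43 in RAP and -0.80 to 0.93 in Con. Fibroblast markers lay at -0.78 to 0.25 in RAP and -0.37 to 0.83 in Con. Mesothelial markers, at -0.47 to -0.24 in RAP and -0.08 to 0.87 in Con, did not overlap between the groups, and 3 of 8 fell. Of all genes 3.45% fell, and 7.85% lay lower in RAP with no overlap. Endothelial markers lay at -0.05 to 0.03 in RAP and -0.32 to 0.28 in Con, and smooth muscle markers at 0.02 to 0.19 in RAP and -0.35 to 0.10 in Con. Atrial markers ranged from -0.16 to 0.40 in RAP and from -0.27 to -0.01 in Con, and ventricular markers from -0.14 to 0.22 in RAP and from -0.65 to 1.08 in Con. The ventricular list holds Nppb (11.78 to 12.69) and Mybphl (9.69 to 10.66), which were bright in every left atrium, so its mean is a weak measure of ventricular RNA. Of 8 hepatocyte markers, which test for liver RNA as another source of Pck1 and Thrsp, 5 lay under 5 on every array. Of the other 3, albumin, Alb (1.07), and transthyretin, Ttr (0.86), passed the thresholds, as 6.39% of all genes did. Alb exceeded 5 only in RAP 3 (6.24) and so entered the test through that array alone. The part of these markers in the results was not tested.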

How the data were processed

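RNA of 6 left atria (3 RAP, 3 Con) had been hybridized to GeneChip Rat Gene ST arrays. Per the labels and the methods, the authors made the deposited log2 signals with Partek software, using RMA (robust multiarray averaging) at default settings, which corrects background, equalizes the arrays by quantiles and summarizes each probe set, and this shrinks differences of dim genes. The software version is not given in the sources used here. The values were used as deposited. The number of arrays limits the precision.

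Of 29214 probe sets 15310 carry 1 gene symbol in the array annotation, 323 several and 13581 none, and 15279 of the first have an identifier in the RefSeq gene list of GRCr8. The 19907 probe sets above a log2 signal of 5 in at least 1 array were fitted with limma 3.58.1 in R 4.3.3, with the pair as a block (2 residual and 2.76 prior degrees of freedom). Each gene is given by its probe set of highest mean signal, and Benjamini-Hochberg adjustment ran over 11237 genes. Changes are RAP minus Con with the moderated standard error (SE). The smallest two-sided p that exact sign flips of 3 pairs allow is 0.25, so none were run. The fit was tested on simulated data.

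The methods describe pairs of rats operated on and paced together, and the sample labels number the rats of each group. Matching partners by these numbers is an assumption that neither source states. The study reports, without showing the plot, that its principal component analysis found clear likeness within its pairs. As a check, deviations of partners from their group means correlated at 0.22, -0.24 and -0.32 in pairs 1, 2 and 3. The values of pairs 2 and 3 are negative, so this check did not bear out the match, on which all differences within pairs rest. Promoters were searched in Python 3.11.15. The genes, the 7 pathway lists and the cell type markers were written from textbook knowledge with earlier results of these data known. Named are the listed genes, fixed relatives and adipocyte markers, pathway genes past the thresholds, and the 5 genes most like Thrsp, Pck1, Pc and Fasn. Ucp1, Aqp7, Cebpa, Alb, Ttr, Mdh2, Got1, the genes of glucose formation and the identity markers Myl7, Nppa and Myl2 were named after their values were seen. Alternatives were no block, the methods' paired t-test, a variance trend, array weights, other filters and scalings, and leaving out pairs or single arrays.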

Additional observations from a re-analysis of the deposited data

How the results depend on the processing

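The number of genes past the thresholds was 718 (330 higher and 388 lower with RAP). It was 234 by the methods' paired t-test and 2650 with array weights, and it ran between 164 and 2488 with a pair left out, the lowest without pair 1 and the highest without pair 3. In unpaired fits it was 1144 without RAP 3, 408 without Con 1 and 1731 without Con 3. Of the 6 measured genes not picked for a rise 1 passed, Gpd1. With array weights 2 passed, as Acly joined it lower (-0.63), and 0 passed by the methods' paired t-test. Leaving out a pair gave 1 to 3, the highest without pair 3 (Gpd1 higher, Acly and Elovl6 lower), and leaving out any single array in an unpaired fit gave 0. With a pair left out Elovl6 ran between -0.44 without pair 3, a reversal, and 0.48 without pair 1, and in unpaired fits with an array left out between -0.45 and 0.57. Of the other pathway genes 14 passed, against 4 by the methods' paired t-test, 38 with array weights and 2 to 39 with a pair left out. In unpaired fits the count was 6 without RAP 2, 23 without RAP 3, 2 without Con 1, 1 without Con 2 and 35 without Con 3. Without RAP 3, Thrsp (0.17) and Pck1 (0.18) moved by more than the spread between pairs. Cidec reversed to -0.22 without RAP 3 in an unpaired fit.

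Without the pair as a block, 870 genes passed, 0 of the 6 measured genes not picked for a rise and 22 of the other pathway genes. The variance trend, the 2 filters and the 3 scalings kept each of these 3 counts within 1.5 times and the direction of all 9 genes, except that Elovl6 was removed by the stricter filter (above 6 in at least 3 arrays). Each of the 9 genes has 1 probe set, so another could not be tried. The causes were not tested. Thrsp in Con 1 and Elovl6 in RAP 2 lay under a log2 signal of 5, where a change is less certain.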
